A study of Rattus norvegicus with 21 samples.

Results

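This report covers 16 of the 21 single neurons in a study of rat hippocampal cultures: 10 GABAergic neurons from antimitotic-purified cultures, pooled, against 6 GABAergic neurons cultured with glial cells. Of the 10 purified neurons, 5 had received no oligodendrocyte conditioned medium (OCM) and 5 had received it; membership came from the submitters' labels alone, and no measured value was used. All 16 cells came from Wistar rats of a VGAT-Venus transgenic line, in which a fluorescent protein reports the vesicular GABA transporter. Hippocampi were taken on embryonic day 18 and every neuron was collected after 17 days in vitro by aspirating its content into a patch electrode after a recording. In purified cultures the antimitotic agents FdU and U, at 5 µM, were added 24 h after dissection and removed after 36 h, a step meant to remove dividing cells. OCM, collected from oligodendrocyte cultures of rat cortex, was added at day 3 in vitro. The pooled comparison asks which transcripts differ wherever glia were removed, with or without the oligodendrocyte factors. By design the antimitotic exposure and the absence of glia cannot be told apart.

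Neurons in culture draw lipids, metabolites and secreted signals from astrocytes and oligodendrocytes. Cholesterol is a known case: it cannot cross into the brain from the blood, astrocytes export it on apolipoprotein E, and neurons can also make it through a chain of enzymes that runs from acetyl-CoA through mevalonate, isoprenoids, squalene and lanosterol. Those enzyme genes share control by sterol regulatory element-binding proteins, which act with NF-Y and Sp1 at the promoters. Glial signals are also known to support the assembly of synapses, in which SNAP-25 and the other SNARE proteins fuse vesicles and gephyrin anchors GABA receptors.

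The labels name no animal or culture, so each group is treated as 1 sample, cells are not replicates, and no p-value is given. Values are normalized read counts, and a difference is the mean over cells of log2(value + 1) in purified cells minus that in glia-cultured cells. It combines how many cells held reads with how many reads they held, and it is given in the order purified without OCM, then purified with OCM. Both purified groups were set against the same 6 glia-cultured cells, so their differences share those cells. A gene counted as measured when it was above 0 in at least 4 of the 16 cells, which left 6388 genes.

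Recovered depth ran from 2442814 to 25160911 reads per cell. At equal depth, 3630 to 8298 table rows were above 0 in the glia-cultured cells, 2555 to 3871 in the purified cells without OCM and 3786 to 5776 in those with OCM. The median gene was lower in purified cells, by -2.12 without OCM and -0.66 with it (-1.38 pooled). The titles carry the letters S, P or ech, whose meaning the labels do not give: the purified cells are 9 titled S and 1 titled P, and the glia-cultured cells are 1 titled S, 3 titled P and 2 titled ech. The P-titled glia-cultured cells had the most rows above 0, from 5852 to 8298. The all-gene median was 0.35 among S-titled cells, where 9 purified cells meet 1 glia-cultured cell, and -4.02 among P-titled cells, where 1 meets 3. Letter and culture overlap, and the part of the letter in the differences was not tested.

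A difference of at least 2 in both purified groups was reached by 109 genes, 1.71% of those measured, in the higher direction and by 1472, 23% of those measured, in the lower direction. Regardless of size, 887 genes (13.9%) were higher and 3553 (55.6%) lower in both. After centring on the median of all genes, 468 were higher and 659 lower by at least 2, so the higher share of these genes was 6.89% as measured and 41.5% after centring. Among S-titled cells that share was 42.9%, and without the P-titled glia-cultured cells it was 33.5%. With differences taken as ratios of group means it was 26.5%, and among genes above 0 in at least 14 cells it was 24.7%. Leaving out glia-cultured cell 3, 4 or 5 gave 174, 168 and 237 higher genes. The lower direction therefore stands beside a general shift, whereas the higher genes go against it.

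Cholesterol synthesis genes made up the clearest group higher in both purified groups. Of 18 measured enzymes, 9 were higher by at least 2 in both groups and 0 were lower by that much. Over all genes the shares were 1.71% and 23%. The number higher depended on the setting. It was 3 with ratios of group means, where 183 of all genes were higher, and 6 with a pseudocount of 10. Without glia-cultured cell 2 it was 6, among S-titled cells 8, and without the P-titled glia-cultured cells 11. The list's median difference was 2.67 without OCM and 2.80 with it (2.06 pooled), against all-gene medians of -2.12 and -0.66. Within title letters the list's median was 3.57 among S-titled cells and 0.42 among P-titled cells. Named by this count, the 9 genes were Acat2, Mvd, Idi1, Fdft1, Cyp51, Tm7sf2, Msmo1, Nsdhl and Dhcr7, and they lie along the pathway from its first step to its last stages.

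Cyp51 (chromosome 4, 27175243 to 27194014 in rn6) encodes lanosterol 14-alpha-demethylase, the enzyme that opens the sterol stage of the pathway. It was listed at 1011, 0, 0, 0, 212 and 938 in glia-cultured cells 1 to 6, at 2522, 3351, 8463, 5119 and 1206 in purified cells 1 to 5, and at 1685, 1130, 7590, 2329 and 1430 in OCM-treated cells 1 to 5. Every purified cell lay above every glia-cultured cell. Means were 360 ± 483 (SD, n = 6 cells) with glia, 4132 ± 2806 (SD, n = 5 cells) in purified cells and 2833 ± 2696 (SD, n = 5 cells) with OCM, so the pooled mean was 9.67 times the glia-cultured one. The differences were 7.12 and 6.49. Cyp51 was the only gene of 6388 without overlap in this direction, 0.0157% of those measured. The margin is narrow, since glia-cultured cell 1 and OCM-treated cell 2 were at 1011 and 1130. No gene stayed free of overlap when cells were scaled to equal upper quartiles, and 2 did, Cyp51 and Tecr, when they were scaled to equal totals. Among S-titled cells the Cyp51 difference was 1.66, and among P-titled cells it was 7.66. In reads, the 10 purified cells held 33880 (95% Poisson interval 33520 to 34243) and the 6 glia-cultured cells 4397 (4268 to 4529), intervals that cover counting error only.

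Fdft1, which encodes squalene synthase, was listed at 989, 0, 4032, 0, 172 and 0 in glia-cultured cells 1 to 6, at 2909, 1066, 1395, 2350 and 1927 in purified cells 1 to 5 and at 2068, 2034, 2966, 495 and 2236 in OCM-treated cells 1 to 5. All 10 purified cells held reads, as did 3 of the 6 glia-cultured cells, among which cell 3 was the highest of all 16. The differences were 5.93 and 5.83. Idi1, the isomerase that makes dimethylallyl diphosphate, was listed at 0, 0, 1712, 597, 509 and 0 with glia, at 2137, 1183, 1439, 3492 and 561 in purified cells and at 1274, 1118, 3453, 519 and 2218 with OCM. The glia-cultured cells with reads were cells 3, 4 and 5, all titled P. Cells 3 and 4 lay within the purified range, and cell 5 lay just under its lowest value, 519. The Idi1 differences were 5.71 and 5.64, but among P-titled cells the value was -0.52. Mvd, the decarboxylase that makes isopentenyl diphosphate, had means of 307 ± 393 (SD, n = 6 cells) with glia, 1472 ± 1226 (SD, n = 5 cells) in purified cells and 1640 ± 912 (SD, n = 5 cells) with OCM. Its differences were 3.81 and 5.87, and among P-titled cells the value was -5.83, because the P-titled purified cell was at 0.

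Tm7sf2, a sterol reductase that acts after Cyp51, had differences of 4.05 and 4.27 with means of 318 with glia, 2339 in purified cells and 2235 with OCM. Acat2, which condenses acetyl-CoA at the start of the pathway, had differences of 3.47 and 3.34. Msmo1 and Nsdhl, which remove the methyl groups at carbon 4, had differences of 3.15 and 2.02 and of 2.20 and 3.03. Dhcr7, the reductase of the last stage, had differences of 5.88 and 2.74. The remaining 9 enzymes did not move together. Sqle, which oxidizes squalene, differed by -1.57 and 0.21. Hmgcs1, an early enzyme that condenses acetoacetyl-CoA with acetyl-CoA, differed by -5.23 and 1.21 and had the lowest pooled value of the list, followed by Sc5d, a late desaturase, at -2.03 and -0.02.

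Promoters are shown for Cyp51, the gene without overlap, and for Idi1, Msmo1 and Nsdhl, members past 2 in both groups whose promoters hold a CCAAT box. Each is the 250 bases before the gene's start in RefSeq on GRCr8, 5′ to 3′ in the direction of the gene: Cyp51 at chr4:30991443-30991692 (plus strand), Idi1 at chr17:66547525-66547774 (minus), Msmo1 at chr16:29746863-29747112 (plus) and Nsdhl at chrX:155817110-155817359 (plus). Capitals mark CCAAT, the box that NF-Y binds, or its reverse complement ATTGG. Expression coordinates elsewhere are in rn6 and were not carried over.
Cyp51: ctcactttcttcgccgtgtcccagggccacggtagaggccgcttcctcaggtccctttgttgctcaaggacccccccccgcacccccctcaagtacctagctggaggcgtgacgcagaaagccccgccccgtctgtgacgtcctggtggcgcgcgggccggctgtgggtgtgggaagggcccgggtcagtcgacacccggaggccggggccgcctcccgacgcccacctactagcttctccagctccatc
Idi1: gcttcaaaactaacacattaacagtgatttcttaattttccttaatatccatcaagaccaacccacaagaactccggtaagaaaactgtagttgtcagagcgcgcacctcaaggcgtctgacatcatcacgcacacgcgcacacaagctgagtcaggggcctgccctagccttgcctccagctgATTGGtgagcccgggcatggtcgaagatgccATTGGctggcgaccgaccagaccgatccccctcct
Msmo1: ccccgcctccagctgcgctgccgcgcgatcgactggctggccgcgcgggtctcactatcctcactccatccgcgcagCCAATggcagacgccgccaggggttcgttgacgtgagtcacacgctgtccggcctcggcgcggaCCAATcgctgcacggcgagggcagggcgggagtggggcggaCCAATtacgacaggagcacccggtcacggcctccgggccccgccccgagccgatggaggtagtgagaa
Nsdhl: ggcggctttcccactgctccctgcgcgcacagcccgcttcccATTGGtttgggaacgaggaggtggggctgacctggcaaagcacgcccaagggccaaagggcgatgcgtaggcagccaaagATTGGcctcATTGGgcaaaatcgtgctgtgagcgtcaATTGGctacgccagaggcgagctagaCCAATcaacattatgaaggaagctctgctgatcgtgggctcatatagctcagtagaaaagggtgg
Idi1 holds 2 such boxes, Msmo1 3 and Nsdhl 5, and the box nearest the gene's start lies 35, 68 and 65 bases before it. Cyp51 holds 0 CCAAT boxes and 1 GGGCGG box, the core that Sp1 binds. Of the 13 measured enzymes with a promoter in the table, 10 hold CCAAT on either strand, as do 34% of all 33469 promoters of that length and 36.1% of those of measured genes. Of the 8 past 2 in both groups with a promoter, 5 hold it (Mvd, Idi1, Tm7sf2, Msmo1 and Nsdhl). The other enzymes that hold it, Hmgcs1, Ggps1, Lss, Ebp and Sc5d, did not pass 2 in both groups, so the box was not particular to the higher enzymes. GGGCGG is in 10 of the 13, against 30.5% of all promoters and 62.4% of those of measured genes. TCACNCCAC, a form of the sterol response element searched on both strands, is in 0 of the 13 and in 0.974% of all promoters. These are matches of letters in these windows, and none of the 3 motifs contains another.

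**Figure D1:**
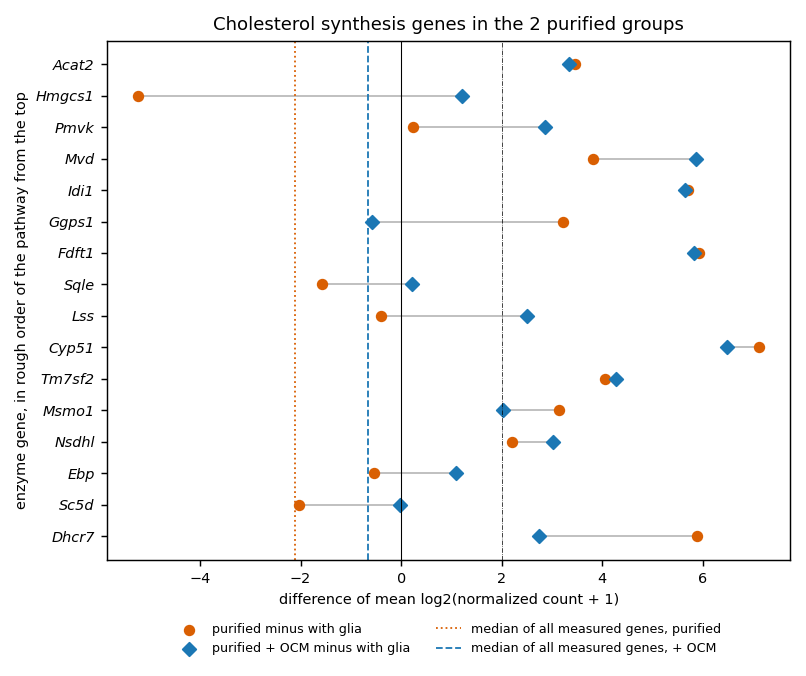
Difference in mean log2(normalized count + 1) from the glia-cultured cells (x axis) for 16 of the 18 measured cholesterol synthesis genes (y axis, in rough pathway order), for purified cells without OCM (circles) and with OCM (diamonds), with the medians of all measured genes as dotted and dashed lines and a line at 2. For 9 genes both markers lie at or right of 2, with Cyp51 farthest right in both groups, while Hmgcs1 has the marker without OCM farthest left of 0.

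Averaged over the 18 enzymes, log2 levels ran from 2.94 to 8.36 in glia-cultured cells, from 6.19 to 8.76 in purified cells and from 6.28 to 9.45 with OCM. The overlap came from glia-cultured cells 3 and 5, both titled P, at 8.33 and 8.36. The other 4 glia-cultured cells, at 2.94 to 5.40, lay below all 10 purified cells.

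Genes that sense, take up or export sterols did not go with the enzymes. Of 15 measured, 2 were higher and 12 lower in both groups, beside 13.9% and 55.6% of all genes. By at least 2, 4 were lower (Apoe, Scap, Cyp46a1 and Vldlr), beside 23% of all genes. The list's median was -2.70 and -0.97, near the all-gene medians. Cyp46a1, the neuronal cholesterol 24-hydroxylase that clears cholesterol from the brain, was listed at 3636, 9090, 2925, 4050, 2062 and 1914 with glia, at 1897, 2934, 1195, 0 and 1194 in purified cells and at 689, 1093, 1.22, 806 and 0 with OCM. Its lowest glia-cultured cell was exceeded by 1 purified cell only, and the differences were -3.16 and -5.67. Vldlr, a receptor for lipoproteins that carry apolipoprotein E, was at 0 in all 5 purified cells, above 0 in 3 of 5 OCM-treated cells and above 0 in 5 of 6 glia-cultured cells; its differences were -9.25 and -3.35. At the other end, Npc2, which hands cholesterol out of lysosomes, differed by 2.68 and 1.53 and Srebf2, which encodes the main sterol-responsive transcription factor, by 0.92 and 0.01.

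Fatty acid synthesis genes showed no such pattern: of 11 measured, 4 were higher and 2 lower in both groups, beside 13.9% and 55.6% of all genes, and 0 passed 2. Its median was 0.61 pooled, -0.50 among S-titled cells and -6.02 among P-titled cells. Acss2, which makes acetyl-CoA from acetate, differed by 0.90 and 4.56, and Elovl5, an elongase of polyunsaturated fatty acids, by 1.66 and 1.10. Hsd17b12, which takes part in elongation, differed by -3.30 and -1.64 and Fads1, a desaturase, by -2.70 and 0.52.

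Tmem254 and Idh1 were the sharpest on and off genes of the higher direction. Tmem254 (chromosome 16, 3817402 to 3821269), a small membrane protein, was listed at 0, 1021, 0, 1436, 0 and 0 with glia, at 1176, 1226, 2725, 900 and 1114 in purified cells and at 676, 1510, 3743, 1577 and 1227 with OCM. All 10 purified cells held reads (100%) and 2 of 6 glia-cultured cells did (33.3%). Those 2 cells lay within the purified range, so the groups overlapped, and the differences were 6.95 and 7.13.

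Idh1 (chromosome 9, 71882116 to 71903804) encodes cytosolic isocitrate dehydrogenase, which supplies NADPH, the reductant of sterol and fatty acid synthesis. It was listed at 0, 0, 0, 437, 0 and 0 with glia, at 0, 3899, 441, 1441 and 1655 in purified cells and at 1301, 1610, 849, 0 and 934 with OCM. Reads were held by 8 of 10 purified cells and 1 of 6 glia-cultured cells, and the differences were 6.92 and 6.66. The other NADPH genes did not share this: of 6 measured, 1 (Idh1) was higher in both groups and 3 were lower, beside 13.9% and 55.6% of all genes. Mthfd2, of mitochondrial folate metabolism, was at -0.14 and -4.41. Me1, cytosolic malic enzyme, differed by -0.74 and 2.01.

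Maged2, a MAGE family protein, was listed at 0.606, 0, 540, 18.5, 92.8 and 0 with glia, at 3414, 0, 2078, 8951 and 11762 in purified cells and at 3333, 452, 202, 1989 and 1042 with OCM. Apart from purified cell 2, each purified cell was above 5 of the 6 glia-cultured cells, and the pooled mean was 30.6 times the glia-cultured one. Its differences were 6.45 and 6.40. The other genes that the naming rule gave in this direction were Ubr4, a ubiquitin ligase (4.37 and 3.59), Aimp2, a scaffold of the aminoacyl-tRNA synthetase complex (3.69 and 5.21), Tspan17, a tetraspanin (3.57 and 3.94), and Tm2d2 (3.82 and 3.95). For Aimp2 the value among S-titled cells was -0.53, and among P-titled cells Ubr4 and Tspan17 were at -5.35 and -0.26. Of the 12 genes named in this direction, from 176 candidates, 5 encode cholesterol enzymes: Cyp51, Fdft1, Idi1, Tm7sf2 and Mvd. The 12 were picked by the size of the difference, and these 5 are among the enzymes already counted as higher in both groups. The count is therefore not separate evidence for the cholesterol list. How many of the 176 candidates encode cholesterol enzymes is not given here.

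**Figure D2:**
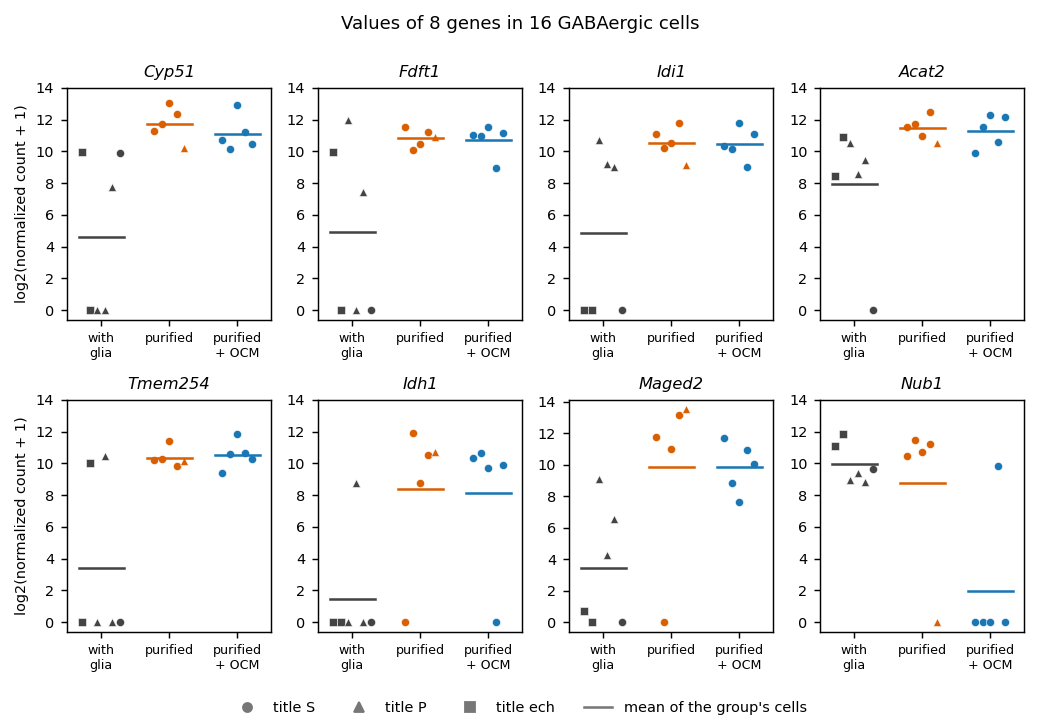
log2(normalized count + 1) (y axis) of 8 genes in each cell of the 3 groups (x axis), with marker shape for the title letter and a bar for the mean of the group's cells. Cyp51 alone has all 10 purified cells above all 6 glia-cultured cells, Tmem254 and Idh1 are at 0 in 4 and 5 glia-cultured cells, and Nub1 is at 0 in 4 OCM-treated cells.

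Nub1, which encodes an adaptor that sends NEDD8 and its conjugates to the proteasome, did not move alike in the purified groups. It was listed at 2167, 3717, 484, 682, 456 and 793 with glia, at 1404, 2813, 1642, 2430 and 0 in purified cells and at 0, 0, 0, 909 and 0 with OCM. Without OCM, 4 of 5 cells lay within the glia-cultured range; with OCM, 4 of 5 were at 0. The differences were -1.19 and -7.99. Of 20 measured NEDD8 pathway genes, 5 were higher and 7 lower in both groups, beside 13.9% and 55.6% of all genes. Ube2f and Cops6, 2 of the 20, were lower by at least 2, beside 23% of all genes. Cul1, a cullin that NEDD8 modifies, differed by 1.59 and 3.63, Dcun1d5, a co-ligase, by 1.99 and 2.85, and Cops6, a subunit of the signalosome that removes NEDD8, by -3.56 and -5.22.

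In the lower direction 13 genes, 0.204% of those measured, had every purified cell below every glia-cultured cell: Snap25, Sncb, Psap, Sv2a, Ppp3r1, Madd, Rph3a, Dlg2, Dagla, Atl1, Cdk10, Pgbd5 and Rnf145. Those of them that fall outside the naming rules (Rph3a, Dagla, Atl1, Cdk10 and Rnf145) are named by this count. Several act in synapses. The number was 8 with cells scaled to equal upper quartiles. It was 20 without glia-cultured cell 1, 20 without cell 2 and 27 without cell 6.

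Snap25 (chromosome 3, 129697408 to 129788416), the SNARE protein of the presynaptic membrane, was read in every cell. It was listed at 34453, 35332, 44072, 29018, 28040 and 26926 with glia, at 6340, 7111, 11775, 14639 and 9119 in purified cells and at 15874, 15437, 14532, 21276 and 24993 with OCM. The highest purified cell of either kind, OCM-treated cell 5, lay below the lowest glia-cultured cell, and 4 of 5 OCM-treated cells lay above every purified cell without OCM. Means were 32974 ± 6442 (SD, n = 6 cells), 9797 ± 3427 (SD, n = 5 cells) and 18422 ± 4524 (SD, n = 5 cells), so the glia-cultured mean was 2.34 times the pooled one. The differences were -1.80 and -0.85, about the size of the general shift: the pooled difference of -1.33 became 0.055 after centring on the all-gene median. Within letters the value was -1.0 among S-titled and -1.85 among P-titled cells.

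Sncb, beta-synuclein of nerve terminals, was listed at 13693, 16552, 10736, 12454, 11861 and 15313 with glia, at 7277, 4886, 7375, 2785 and 10136 in purified cells and at 8074, 8094, 7787, 10435 and 7697 with OCM. The gap was small, since OCM-treated cell 4 at 10435 lay just under glia-cultured cell 3 at 10736; the differences were -1.16 and -0.67, and the pooled value turned from -0.91 to 0.47 after that centring. Sv2a, a synaptic vesicle glycoprotein, was listed at 3147, 6101, 1900, 1692, 1438 and 2269 with glia, at 548, 50.2, 65.8, 547 and 0 in purified cells and at 868, 1083, 0, 412 and 1174 with OCM. The glia-cultured mean was 5.81 times the pooled one, and the differences were -5.25 and -3.50.

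Psap, which encodes prosaposin, the precursor of lysosomal sphingolipid activators, was listed at 4305, 5511, 5564, 2736, 3319 and 3555 with glia, at 382, 1253, 16.4, 1202 and 1444 in purified cells and at 1230, 878, 1016, 1515 and 2227 with OCM. Its differences were -3.23 and -1.63. Ppp3r1, the regulatory subunit of calcineurin, was listed at 5546, 3055, 5893, 4490, 5092 and 9963 with glia, at 1.24, 1981, 2829, 0 and 0 in purified cells and at 583, 2253, 2305, 2692 and 476 with OCM. The purified group was split into cells near 0 and cells just under the glia-cultured range, and the differences were -7.66 and -2.02. These 5 genes, Snap25, Sncb, Sv2a, Psap and Ppp3r1, were above 0 in at least 14 of the 16 cells; in that subset of 1144 genes no gene was higher without overlap.

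The other 8 were at or near 0 in most purified cells. Madd, which activates the exchange of nucleotide on Rab3 of synaptic vesicles, was listed at 2480, 2673, 1552, 1059, 1832 and 4572 with glia, at 0 in all 5 purified cells and at 1.16, 56, 0, 0 and 261 with OCM; its glia-cultured mean was 74.3 times the pooled one. Dlg2, the postsynaptic scaffold PSD-93, was listed at 1089, 1178, 316, 141, 127 and 191 with glia, at 41 in purified cell 5, at 1.02 in OCM-treated cell 2 and at 0 in the other 8 purified cells. Rph3a, rabphilin, an effector of Rab3, had differences of -6.04 and -5.02 but nearly touching groups, with glia-cultured cell 4 at 88.6 and OCM-treated cell 5 at 88.4. Dagla, the lipase that makes the endocannabinoid 2-arachidonoylglycerol, had differences of -9.95 and -5.21. Atl1, atlastin of the endoplasmic reticulum, was at 0 in all 5 purified cells without OCM and in 3 of 5 with it (-10.73 and -7.18). Cdk10, a cyclin-dependent kinase (-5.55 and -6.89), Pgbd5, a transposase-derived protein (-8.44 and -7.82), and Rnf145, a ubiquitin ligase (-8.42 and -6.77), completed the set.

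**Figure D3:**
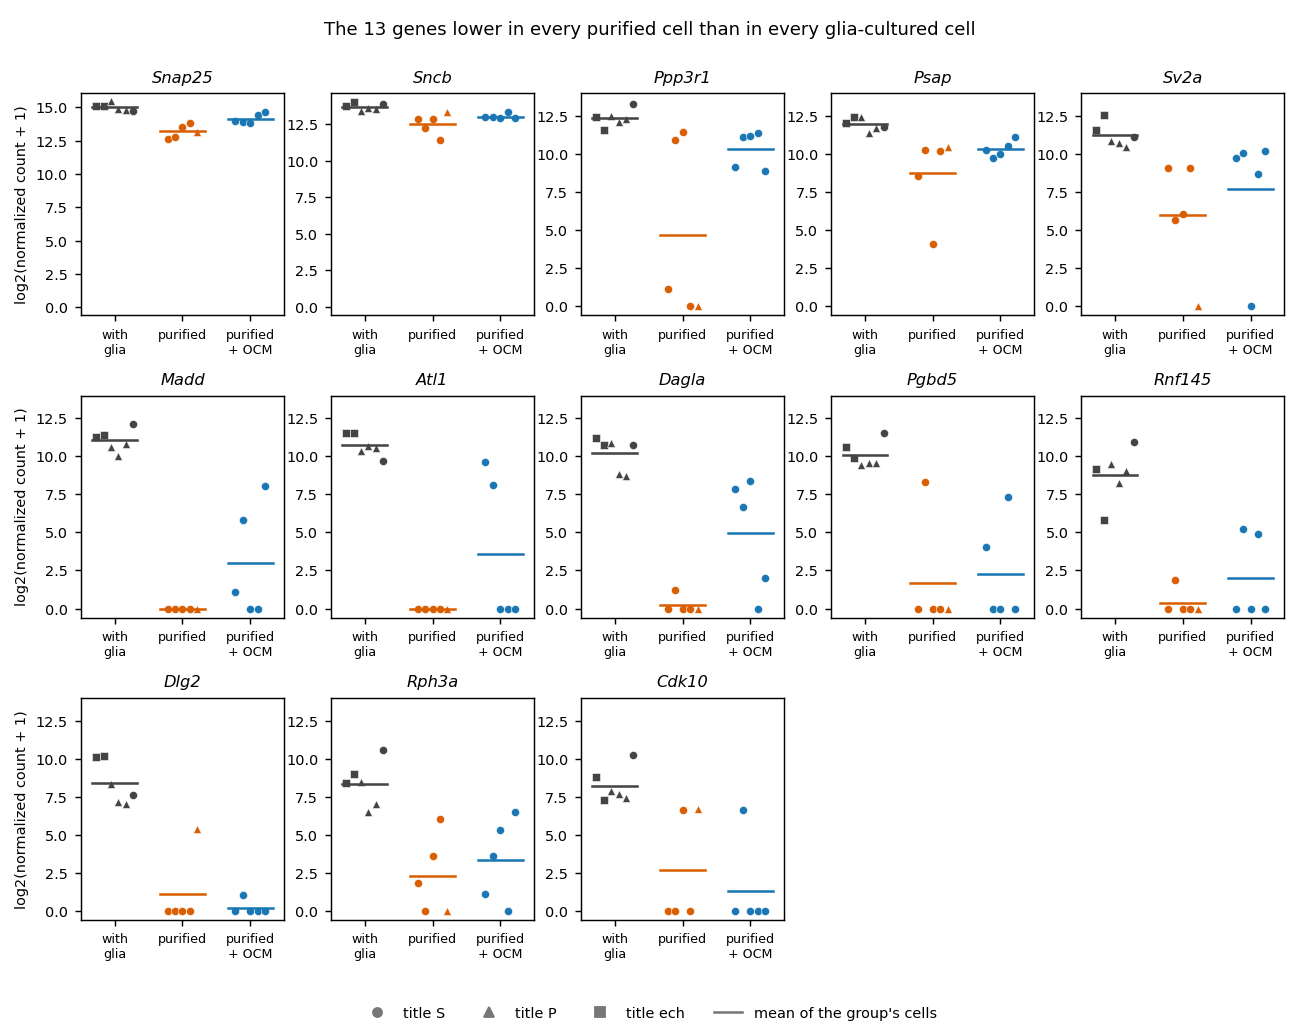
log2(normalized count + 1) (y axis) of the 13 genes in each cell of the 3 groups (x axis), with marker shape for the title letter and a bar for the mean of the group's cells. All 10 purified cells lie below all 6 glia-cultured cells in each panel, with the narrowest gap for Rph3a, small gaps for Atl1, Sncb and Snap25, and most purified cells at 0 for Madd, Dlg2 and Rnf145.

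The naming rule for large on and off differences gave 12 genes lower in purified cells, from 1134 candidates, among them Nrsn1, Pde1b, Madd, Pgbd5, Mrpl50, St8sia5, Eif2b2, Dlg2, Slitrk4, Atg16l1 and Nabp1. Pde1b, a calmodulin-dependent phosphodiesterase, was listed at 865, 1794, 2118, 448, 198 and 0 with glia and at 0 in all 10 purified cells. Its glia-cultured mean was 1099 times a floor of 3 reads over the purified group. That floor covers counting error only, so the ratio is no lower bound on the difference. Nabp1, a single-stranded DNA binding protein, was likewise at 0 in all 10, and its glia-cultured mean was 627 times the same floor. Both were also at 0 in glia-cultured cell 6, so their difference among S-titled cells was 0. Nrsn1, a neuronal vesicle protein, was read in all 6 glia-cultured cells, from 1144 to 3227, and in 2 of 10 purified cells, at 2216 and 1319. Eif2b2, a translation factor subunit, was read in 5 of 6 glia-cultured cells, from 394 to 799; of the purified cells, it was at 0.611 in OCM-treated cell 3 and at 0 in the other 9.

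Genes of inhibitory synapses were lower as a list. Of 13 measured GABA receptor subunits and associated proteins, 0 were higher and 11 lower in both groups, 8 of them by at least 2; of all measured genes, 55.6% were lower and 23% lower by at least 2. Their median was -4.77 and -2.87 (-3.74 pooled, and -2.36 once centred on the all-gene median), and it was -3.74 among S-titled and -6.40 among P-titled cells. Gphn, gephyrin, the scaffold that anchors glycine and GABA-A receptors, was listed at 53.3, 4966, 4009, 1796, 1015 and 4082 with glia, at 0 in all 5 purified cells and at 43, 698, 117, 18.4 and 2561 with OCM. Its differences were -10.47 and -2.99, and 3 of 5 OCM-treated cells lay within the glia-cultured range. Gabra5, a subunit of extrasynaptic receptors, was read in 5 of 6 glia-cultured cells and 2 of 10 purified cells (-6.11 and -6.41). At the other end, Gabrb2, a beta subunit, differed by -2.03 and 3.09.

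Of 21 measured presynaptic release genes, 0 were higher and 19 lower in both groups, beside 55.6% of all genes, and 7 were lower by at least 2, beside 23%. The median over them was -2.65 and -1.42, or -0.59 pooled once centred on the all-gene median, and it was -1.98 among S-titled and -4.00 among P-titled cells. Mean log2 levels of the list ran from 9.03 to 10.46 in glia-cultured cells. They ran from 5.82 to 7.96 in purified cells and from 7.34 to 9.58 with OCM. The purified cells without OCM thus did not overlap the glia-cultured cells, and those with OCM did. The mean over all measured genes separated the same way, at 4.80 to 7.84 with glia and 3.34 to 4.67 without OCM. With OCM that mean started at 4.72 and overlapped the glia-cultured cells. The separation is therefore not particular to this list. Vamp1, a vesicle SNARE, was listed at 1286, 1394, 578, 1784, 1673 and 1270 with glia, at 0, 0, 526, 0 and 1226 in purified cells and at 418, 204, 1.22, 0 and 0 with OCM. Its differences were -6.44 and -6.79. Syt4, a synaptotagmin, differed by -10.30 and -2.66. Rab3a, the small GTPase of vesicles, differed by -0.40 and -0.20 and Rims1, an active zone scaffold, by -0.82 and 0.56.

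Synaptic adhesion and scaffold genes had 21 measured members, of which 0 were higher and 14 lower in both groups, beside 55.6% of all genes, and 9 by at least 2, beside 23%. Mean log2 levels of this list were 6.14 to 8.12 in glia-cultured cells, 2.23 to 4.32 in purified cells and 3.40 to 6.02 with OCM, with no overlap between cultures. Its median was -3.93 and -2.58 (-1.94 pooled once centred), and within letters it was -1.71 (S) and -2.94 (P). Besides Dlg2, its lowest member was Slitrk4, an adhesion protein of the Slitrk family that binds presynaptic receptors: it was read in 5 of 6 glia-cultured cells, from 1196 to 3924, and did not exceed 172 in any purified cell. Its relatives Slitrk3 and Slitrk5 went another way, with differences of -0.24 and 5.66 and of -0.07 and 6.0.

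**Figure D4:**
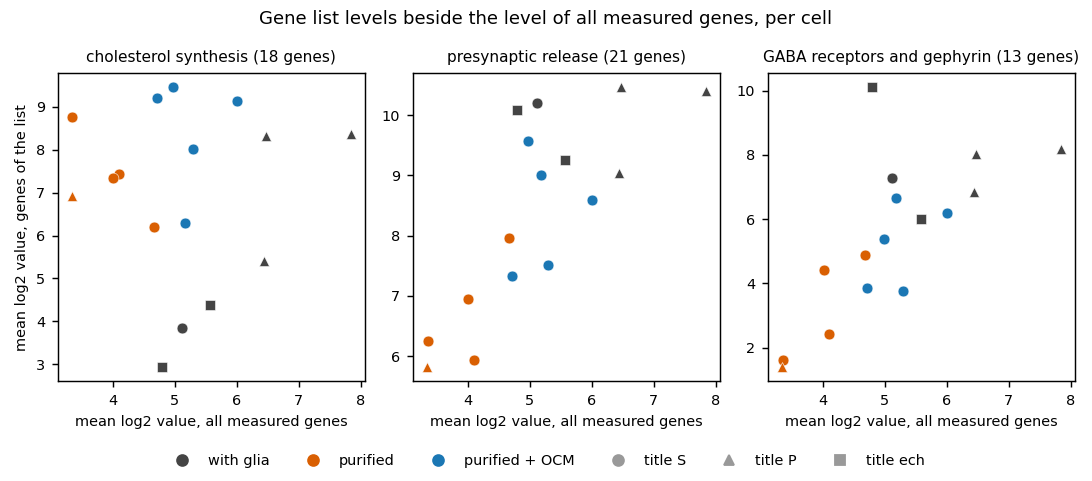
Mean log2 level of 3 gene lists (y axes) against the mean log2 level of all measured genes in the same cell (x axes), 1 marker per cell, colored by group and shaped by title letter. Purified cells without OCM are low on both axes for the presynaptic and GABA receptor lists but not for the cholesterol list, where 4 of the 6 glia-cultured cells lie below all purified cells.

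Counts for receptors and channels of the neuronal membrane stand beside 55.6% of all genes lower in both groups and 23% lower by at least 2, and the shares of lower genes were near the former. Among 10 glutamate receptor genes, 1 was higher and 6 lower in both groups, 3 by at least 2, with Gria1, an AMPA receptor subunit, at -7.49 and -3.30, Grik5, a kainate receptor subunit, at -5.71 and -3.51, and Grik2, its partner, at 1.93 and 5.92. Grm5, a metabotropic receptor, differed by 1.41 and -0.36. Among 8 sodium channel genes, 1 was higher and 5 lower, 3 by at least 2. Scn1a, the sodium channel of fast-spiking interneurons, was listed at 2266, 1882, 1385, 1194, 1157 and 1983 with glia, at 0, 0, 0, 10.3 and 1.87 in purified cells and at 0, 1292, 4.28, 312 and 2388 with OCM. Purified cells without OCM lay far under the glia-cultured range, while OCM-treated cells spread from 0 to its top. Scn8a, a channel of the axon initial segment, differed by -7.13 and -3.32, Scn2a by -0.80 and 1.18 and Scn3a by 0.34 and 0.76. Of 19 potassium channel genes, 0 were higher and 11 lower in both groups, 7 by at least 2, with a median of -3.10 and -1.03 and the opposite sign, 0.89, among S-titled cells. Kcnab1, an auxiliary subunit, was read in all 6 glia-cultured cells, from 596 to 1273, and in 3 of 10 purified cells (-9.80 and -5.55). Kcna2, an axonal channel, differed by -6.16 and -5.90. Kcnip4 and Kcnd3, a partner and a pore subunit of A-type channels, differed by 4.53 and -1.63 and by 3.18 and -0.92.

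The GABAergic label was checked on its defining genes. Slc32a1, the vesicular GABA transporter behind the reporter, was above 0 in all 16 cells, with means of 629 ± 269 (SD, n = 6 cells), 713 ± 383 (SD, n = 5 cells) and 702 ± 716 (SD, n = 5 cells). Gad1, which makes GABA, was listed at 17542, 19503, 17837, 6011, 17297 and 9885 with glia, at 2930, 1636, 2574, 0 and 2725 in purified cells and at 2422, 11930, 15540, 8585 and 12320 with OCM. The low Gad1 level was that of the purified cells without OCM, with differences of -4.74 and -0.66, so it was not shared in size by both groups. Gad2, also a GABAergic marker, had means of 14556 with glia, 5462 in purified cells and 7836 with OCM (-2.12 and -0.94). Of 5 measured genes of GABA synthesis and transport, 0 were higher and 4 lower in both groups, beside 13.9% and 55.6% of all genes. Abat, which breaks GABA down, differed by -5.73 and -1.02. Slc17a7, the transporter that defines many glutamatergic neurons, was at 0 in all 16.

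Interneuron subtype markers were unevenly spread over the groups. Sst, somatostatin, was above 0 in 5 of 6 glia-cultured cells, 3 of 5 purified cells and 5 of 5 OCM-treated cells, and Npy, neuropeptide Y, in 4, 2 and 5. Both were chosen after their values were seen. Reln, reelin, differed by 6.64 and 0.28, Pnoc, the nociceptin precursor, by -6.51 and 1.12 and Tac1, the substance P precursor, by -1.41 and -1.90. Kit, a receptor tyrosine kinase, was at 0 in all 6 glia-cultured cells and above 0 in 3 purified and 2 OCM-treated cells. The part of subtype in the other differences was not tested.

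General neuronal genes were nearer to 0 difference: of 17, 5 were higher and 7 lower in both groups, beside 13.9% and 55.6% of all genes. In each direction 1 of the 17 passed 2, beside 1.71% of all genes higher and 23% lower. Gap43, a growth cone protein, was the one higher, listed at 3689, 0, 5625, 1714, 98.1 and 6462 with glia, at 10168, 10358, 4740, 5948 and 3802 in purified cells and at 12978, 2070, 3139, 901 and 1638 with OCM. The groups overlapped, and the differences were 3.60 and 2.30, with -0.64 among S-titled cells. Stmn2, which acts on microtubules of growing axons, differed by 1.07 and 0.72, with -0.22 among S-titled cells. Rbfox3, the gene of the NeuN antigen, was the one lower (-4.09 and -2.27, with 5.03 among S-titled cells), and Nefh, a neurofilament subunit, differed by -9.39 and 0.46.

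Housekeeping lists were set beside these shifts. Of all measured genes, 13.9% were higher and 55.6% lower in both groups. Ribosomal protein genes have many near-identical copies, so single values are uncertain. Of 31 measured, 16 were higher and 8 lower in both groups, with a median of 0.13 and 0.44 and -0.12 among S-titled cells. Rpl23 (1.83 and 2.37) was at the upper end and Rpl3 (-4.72 and -2.23) at the lower end. Of 26 nuclear genes of oxidative phosphorylation, 4 were higher and 9 lower, with a median of -0.55 and 0.06. Cyc1 (0.68 and 0.75) and Ndufb5 (0.14 and 0.90) stood at its upper end, and Ndufa9 (-2.66 and -2.58) and Sdhd (-4.87 and 0.45) at its lower end. The medians of both lists lay above those of all genes. They also lay above -0.79 and -0.15, the medians of the genes above 0 in at least 14 cells. Lists with more members at 0 in some cells, such as those of synapses and channels, are not matched to these.

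The antimitotic agents act on nucleotide metabolism and DNA. Of all genes, 13.9% were higher in both groups and 55.6% lower, and by at least 2 the shares were 1.71% and 23%. FdU inhibits thymidylate synthesis; of 11 measured genes of thymidylate and uridine metabolism, 0 were higher and 6 lower in both groups, and 0 passed 2. Tyms, the target enzyme, differed by 0.67 and -1.13, and Tk2, the mitochondrial thymidine kinase, by -1.65 and -1.73. Umps, which makes uridine monophosphate, differed by -2.65 and 4.76, and Nt5c, a nucleotidase, by -2.42 and -0.45. Of 15 genes of the p53 and DNA damage response, 1 (Ccng1, cyclin G1, at 1.92 and 2.67) was higher and 9 lower. By at least 2, 4 of the 15 were lower (Bax, Cdkn1a, Aen and Xpc), beside 23% of all genes. Aen, an apoptosis nuclease, differed by -6.20 and -3.22 and Xpc, a DNA repair factor, by -4.25 and -6.54, while Mdm2, the ligase that degrades p53, was at 3.08 and -0.21. Over the list the median was -2.78 and -0.70, with the opposite sign, 2.05, among S-titled cells and 0.0202 when differences were taken as ratios of group means.

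Transporters and enzymes that exchange metabolites with glia had 16 measured members, of which 0 were higher and 10 lower in both groups, beside 55.6% of all genes, and 6 by at least 2, beside 23%. Slc16a1, the lactate transporter MCT1, was listed at 738, 1133, 358, 1150, 594 and 0 with glia, at 0 in all 5 purified cells and at 264 in 1 of 5 OCM-treated cells. Glud1, glutamate dehydrogenase, differed by -7.18 and -5.34. Slc6a6, the taurine transporter, differed by 1.74 and -0.09 and Slc1a1, a neuronal glutamate transporter, by -1.28 and 1.89. The list's median was -2.84 and -0.96, with 0.19 among S-titled cells. Astrocyte markers had a median of -2.80 and -1.56, with the opposite sign, 0.82, among S-titled cells. Summed over the list they ran from 1338 to 17470 in glia-cultured cells, from 0 to 7698 in purified cells and from 5148 to 14157 with OCM. Of 7 measured astrocyte markers, 0 were higher and 6 lower in both groups, with Aldoc, aldolase C, at -5.40 and -2.74, Sparcl1, a secreted matrix protein, at -3.68 and 2.32 and Gja1, connexin 43, at -0.15 and -0.99. Among the defining markers, Slc1a2 was at 0 in all 16 cells, Gfap was above 0 in 1 cell, at 12.3, and Aqp4 in 2, at up to 22.4. Slc1a3, a glutamate transporter of astrocytes, was above 0 in 7 cells, at up to 1025, and Apoe in 6, at up to 2011. Clu, clusterin, was read in 14 of 16 cells, with means of 8852, 2314 and 6484 in the 3 groups, and differences of -5.73 and -0.23. Of oligodendrocyte markers, Mog, Mag, Sox10 and Pdgfra were at 0 in all 16, and 0 microglial markers were measured. The part of glial RNA in the lower genes was not tested.

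**Figure D5:**
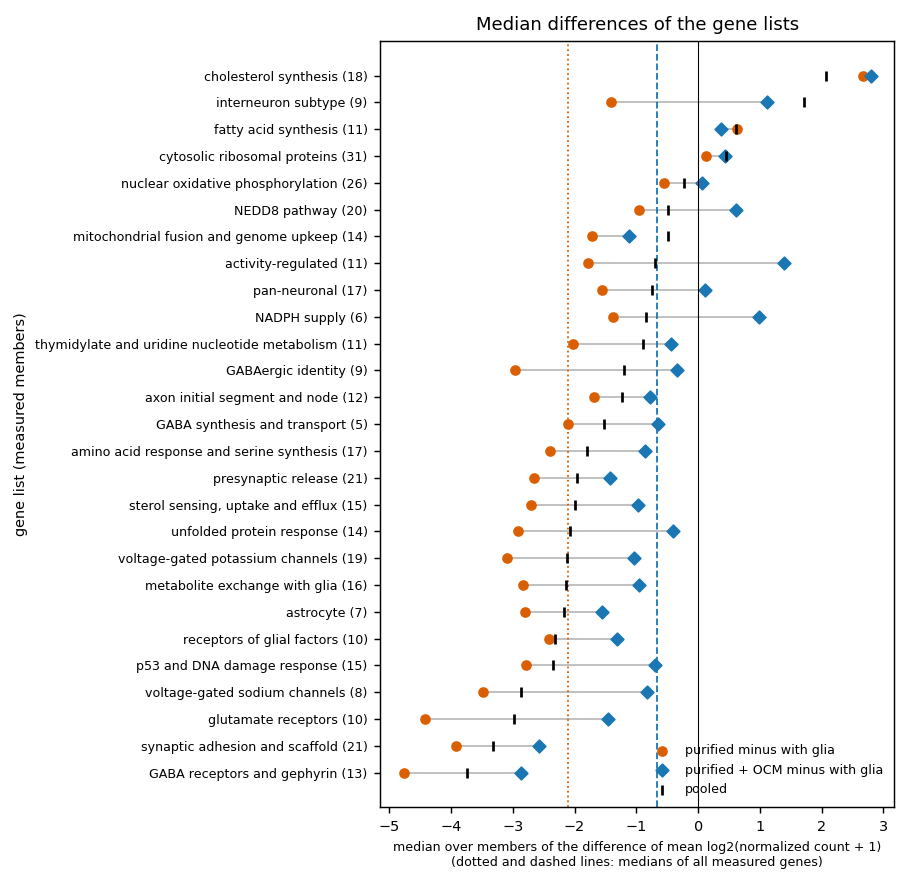
Median over the measured members of each gene list (y axis, with the number of members) of the difference in mean log2(normalized count + 1) from the glia-cultured cells (x axis), for purified cells without OCM (circles), with OCM (diamonds) and pooled (bars), with the all-gene medians as dotted and dashed lines. Cholesterol synthesis lies farthest right, with both groups above 2, and GABA receptors and gephyrin farthest left.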

How the data were processed

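The content of single patched neurons was reverse transcribed and amplified with the SMART-Seq v4 kit, and Nextera XT libraries were read in pairs, per the labels' protocols. The build rn6 and the tools STAR 2.4.0, DESeq2, Picard, SAMtools and FastQC are named, without their roles, in the submitters' processing notes. Which counter and annotation were used, and whether strand was, is not stated in the labels used here, and without strand overlapping genes cannot be separated. The deposited values are DESeq2-normalized counts, a signal in which each of a cell's values is a whole multiple of what 1 read is worth; 100% of values came out whole within 0.05. This gives depths of 2442814 to 25160911 reads per cell. Amplified reads are not independent molecules, and every interval or floor covers only counting error.

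Of 34976 rows, 18376 had no symbol and were not used, and 355 rows that repeat a symbol were left out, leaving 16245 symbols, of which 14108 are current in RefSeq's GRCr8 table and 1739 are synonyms there. Differences were taken between means over cells of log2(value + 1), for genes with a value above 0 in 4 or more of the 16 cells. Cells are not replicates and no animal or culture is named, so neither a count test on the recovered reads nor any other test between groups was run. No pair of cells was identical; the highest Spearman correlation between cells was 0.698.

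Genes named are the 4 markers of the comparison, 12 genes per direction with the largest difference left in both groups after leaving out any 1 cell (with a mean of at least 50 and reads in at least 4 of 5 cells of each purified group, or 5 of 6 glia-cultured cells), genes without overlap that are above 0 in at least 14 cells, and the 2 members with the largest and the 2 with the smallest pooled difference of each list described. Some genes that these rules give are not reported here. Any other gene was named after its values were seen. The members, markers and 33 gene lists were chosen with earlier results of these data known. Alternatives changed the pseudocount, scaling, gene filter, size of difference and averaging, kept 1 title letter, or left out each cell. The work used matplotlib 3.10.9, pandas 2.3.3, numpy 2.4.6, scipy 1.17.1 and Python 3.11.15, with scripts tested on simulated data.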

Additional observations from a re-analysis of the deposited data

Results flagged for a closer look

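Of 117 sets of cells examined, 1 group and 1 measure each, 12 had a cell far from the others of its group by Dixon's criterion at 95% confidence. Chance alone meets it about 1 time in 20 only where values are normally distributed. Levels of exactly 0, as in the Idh1, Nub1 and Sv2a flags, break that condition, so the chance rate here is not known. Values are log2 levels. The NADPH supply list was at 6.46 in OCM-treated cell 2 against 3.45 to 3.77 in the other 4, and the p53 list at 6.04 in OCM-treated cell 1 against 2.82 to 3.28. Metabolite exchange genes were at 3.09 in OCM-treated cell 3 against 5.83 to 6.83, and sodium channel genes at 0.335 in purified cell 2 against 3.10 to 4.16. Tmem254 was at 11.41 in purified cell 3 against 9.81 to 10.26. Idh1 was at 8.77 in glia-cultured cell 4, where the other 5 were at 0, and at 0 in purified cell 1 and OCM-treated cell 4, where the others of each group were at 8.79 or above. Nub1 was at 0 in purified cell 5 against 10.46 to 11.46, and at 9.83 in OCM-treated cell 4 against 0. Sncb was at 13.35 in OCM-treated cell 4 against 12.91 to 12.98, and Sv2a at 0 in OCM-treated cell 3 against 8.69 to 10.20.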

How the results depend on the processing

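No paired analysis was possible because the labels give no replicate number, animal or culture that cells of different groups share. The numbers of genes higher and lower by at least 2 in both purified groups, 109 and 1472, moved to 44 and 772 with a pseudocount of 10, to 65 and 732 with genes above 0 in at least 8 cells, to 18 and 55 with at least 14 cells, to 183 and 508 with ratios of group means, to 320 and 2303 with differences of at least 1, to 36 and 761 with at least 3, and to 468 and 659 after centring on the all-gene median, a setting chosen after seeing the data, as was the filter of 14 cells for the median. The higher number moved to 191 with a pseudocount of 0.1, to 1345 among S-titled cells and to 587 without the P-titled glia-cultured cells. Of the 109 genes, 98 were also higher without those P-titled cells and 85 among S-titled cells. Genes without overlap, 1 higher and 13 lower, were 2 higher with equal totals, 0 and 8 with equal upper quartiles, 0 and 5 with at least 14 cells, 104 and 841 among S-titled cells, 973 and 2268 among P-titled cells, and 5 (Cst3, Cyp51, Idi1, Pld3 and Uqcc2) and 71 without P-titled glia-cultured cells; fewer cells leave more room for groups without overlap. The all-gene median of -1.38 moved to -0.28 with ratios of group means, to -0.52 without the P-titled glia-cultured cells, to -0.56 with genes above 0 in at least 14 cells, to -0.87 with a pseudocount of 10, to -0.90 with no filter on genes, to 0.35 among S-titled cells and to -4.02 among P-titled cells, and ran from -1.29 with equal totals to -1.61 with equal upper quartiles. P-titled cells give no count for both purified groups, since no OCM-treated cell is titled P. Leaving out 1 cell at a time gave 100 to 237 genes higher, 1199 to 1640 lower, 1 to 3 above, 13 to 27 below and an all-gene median of -1.63 to -1.02. The number above was 2 without glia-cultured cell 6, OCM-treated cell 4 or OCM-treated cell 5 and 3 without purified cell 5; Cyp51 was among them each time. Turned signs were counted only for list medians and named genes at least 2 in size as reported. Among S-titled cells these were the medians of p53 genes (2.05), metabolite exchange (0.19), potassium channels (0.89) and astrocyte markers (0.82), and Aimp2 (-0.53). The p53 median also turned with ratios of means (0.0202). Among P-titled cells they were Idi1 (-0.52), Mvd (-5.83), Ubr4 (-5.35) and Tspan17 (-0.26). Smaller list medians, outside that count, also turned among S-titled cells. Examples are the NEDD8 pathway (-0.48 to 2.39), thymidylate and uridine metabolism (-0.89 to 1.94) and NADPH supply (-0.85 to 1.80). Fatty acid synthesis turned the other way (0.61 to -0.50). The cause was not tested. The cholesterol list's median stayed above 0 in every setting run, from 0.42 among P-titled cells to 3.57 among S-titled cells, and those of the presynaptic, GABA receptor and adhesion lists below 0. With 1 sample per group and 5 or 6 cells each, precision is limited by the number of cells rather than by reads.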

Other observations

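The 5 pyramidal neurons of the series, cultured with glia and outside the comparison, give the levels of the markers in another cell type. Tmem254 was at 0 in all 5. Idh1 was above 0 in 1, at 367, and Cyp51 in 3, at 485, 621 and 2786. Nub1 was above 0 in 3, at 2620, 23.6 and 699. Of the table's rows without a symbol, 718 were above 0 in at least 4 of the 16 cells, and 0 of them had every purified cell on one side of every glia-cultured cell.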
